A study of Mus musculus with 16 samples.

Results

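The genes described here encode the proteasome: every gene in the deposited count tables whose symbol is Psm followed by a letter from a to g and a number, with a total of 10 or more counts over the 16 libraries. Of 48 such symbols, 46 reached that total, out of 13318 genes that did so in the whole series. The remaining pair, Psma8 and Psmb11, had 8 counts each. RNA was taken from erythroblasts sorted from steady-state mouse bone marrow with antibodies against CD44 and Ter119, as polychromatic erythroblasts (Poly-E) and the later orthochromatic erythroblasts (Ortho-E). The mice were Ypel4+/+ (wild type) or Ypel4-/- (homozygous mutants on a C57BL/6N-A<tm1Brd> background that carry the Ypel4 tm1a(EUCOMM)Wtsi gene-trap allele in all cells), and each combination of genotype and stage had 4 libraries. The age of the mice was not stated for these samples. The question put to the proteasome genes was how their transcripts differed between the 2 stages and whether loss of Ypel4 changed them.

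The proteasome degrades proteins tagged with ubiquitin. Its 20S core is a barrel of stacked rings, with alpha subunits (Psma) forming the gates at both ends and beta subunits (Psmb) lining the chamber, of which Psmb5, Psmb6 and Psmb7 carry the cutting sites. A 19S cap, made of a ring of ATPases (Psmc) that unfolds substrates and of non-ATPase subunits (Psmd) that bind and remove ubiquitin, completes the 26S particle. Other caps (Psme1 with Psme2, Psme3, and Psme4) open the core without ubiquitin, Psmf1 is named for inhibiting the core, and the Psmg proteins with Psmd5, Psmd9 and Psmd10 help the particle assemble. Erythroblasts clear most of their proteins and finally their nucleus while haemoglobin accumulates, and the proteasome takes part in that clearance.

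Libraries held from 2670173 to 12451234 counts. Ypel4 itself was at 490 to 716 counts per 1000000 library counts (CPM) in Ypel4+/+ Poly-E libraries against 9.89 to 23.6 in Ypel4-/- ones, and at 4429 to 5440 against 175 to 224 in Ortho-E, so every library matched its genotype label. Erythroid markers (globins, Slc4a1 and others; 11 genes matched) summed to 58449 to 70842 CPM in Poly-E and 234416 to 322264 in Ortho-E. The 4 lists of markers of other blood cells summed to at most 113 CPM each. The T cell gene Cd3e and the platelet gene Gp1bb were at 0 in all 16 libraries. Megakaryocyte markers summed to 27.1 to 35.7 CPM in Poly-E and 89.97 to 113 CPM in Ortho-E. In Ortho-E, lymphocyte markers summed to 21.7 to 30.3 CPM in Ypel4+/+ and 38.8 to 44.9 CPM in Ypel4-/- libraries, without overlap. In Poly-E the genotypes overlapped (14.5 to 19.1 and 17.7 to 29.2 CPM). None of the 5 lymphocyte markers tested was called between the genotypes at either stage. The part of these markers in the results was not tested. Globin transcripts took 5.39% to 6.46% of the counts in Poly-E and 10.8% to 13.96% in Ortho-E.

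The choice of scaling matters for every change between the stages. CPM and RPKM (CPM per kilobase of exon) are given here with the TMM scaling factors of edgeR, which were 1.45 to 1.64 in Poly-E and 0.61 to 0.73 in Ortho-E libraries. TMM sets the typical gene near 0 change. With library totals alone the median log2 change of all tested genes between the stages was -1.45 in Ypel4+/+ and -1.47 in Ypel4-/- cells, against -0.19 and -0.09 with TMM. Higher or lower therefore means relative to the typical transcript. Changes that depend on this choice are named below for part of the genes. In bulk RNA, fewer cells of a type and less RNA per cell cannot be told apart.

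Psme3 dominated the proteasome transcripts. It encodes the subunit of a nuclear cap (PA28 gamma) that opens the core without ubiquitin or ATP, and it lies on chromosome 11 of GRCm38 from 101316213 to 101323537. In Ypel4+/+ cells its level was 700, 575, 692 and 617 CPM in the 4 Poly-E libraries and 3452, 3019, 3521 and 3813 CPM in the 4 Ortho-E libraries. All Ortho-E values lay above all Poly-E values, by 5.47-fold in the fit (log2 fold change 2.45, standard error 0.13, adjusted p = 5.83e-15, edgeR quasi-likelihood test). The mutant libraries went from 465, 584, 645 and 625 CPM to 2826, 3444, 3703 and 3613 CPM, which is 6.58-fold in the fit (log2 2.72, standard error 0.13, adjusted p = 1.01e-18). Psme3 was the one member called higher under TMM, under the size factors of DESeq2 and under library totals (log2 fold change with totals 1.17 and 1.30 in the respective genotypes). Per length it ranked 129 among the 13318 genes in Ypel4+/+ Poly-E and 57 in Ypel4+/+ Ortho-E cells. Its rise was not among the largest of the series. A larger log2 fold change was found for 791 of 11747 genes tested in Ypel4+/+ and 744 of 11973 in Ypel4-/- cells.

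Ratios among the proteasome genes within a library do not depend on the scaling, and they showed the same shift. Psme3 made up 20.4%, 17.5%, 20.9% and 20.2% of all counts on the 46 genes in the Ypel4+/+ Poly-E libraries and 51.2%, 49.2%, 55.3% and 56.2% in the Ypel4+/+ Ortho-E libraries. More than one count in every pair on proteasome genes thus came from Psme3 in 3 of the 4 Ortho-E libraries. The mean shares in Ypel4-/- cells were 18.2% ± 2.55 (SD, n = 4) and 54.1% ± 3.34. The RPKM of Psme3 over the mean RPKM of the 14 constitutive 20S genes rose from 6.78 ± 0.82 in Ypel4+/+ Poly-E to 30.6 ± 2.77 in Ypel4+/+ Ortho-E cells. The sum of the 45 other genes does depend on it. As a share of library counts it was 0.397% ± 0.016 at the Poly-E and 0.194% ± 0.0093 at the Ortho-E stage of Ypel4+/+ cells, lower in every Ortho-E library, whereas on the TMM scale it was 2625 ± 133 CPM and 3057 ± 192 CPM, higher in every Ortho-E library. Mutant cells had 0.411% ± 0.024 and 0.190% ± 0.015 of library counts, and 2613 ± 145 CPM and 2865 ± 103 CPM with overlap.

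**Figure D1:**
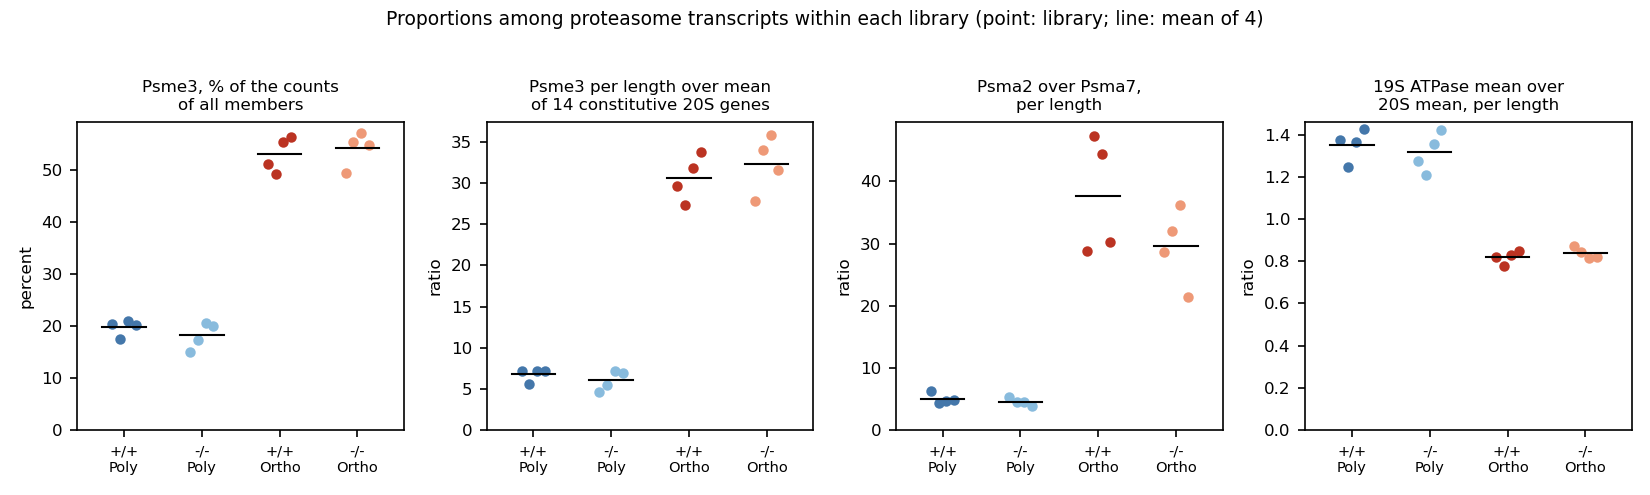
Each point is one library and each line the mean of 4, in the groups Ypel4+/+ Poly-E, Ypel4-/- Poly-E, Ypel4+/+ Ortho-E and Ypel4-/- Ortho-E. The panels plot, from left, the percent of proteasome gene counts on Psme3, the ratio of its RPKM to the mean of 14 constitutive 20S genes, the Psma2 to Psma7 ratio per length, and the ratio of the 19S ATPase mean to the 20S mean. In every panel the Ortho-E libraries lie apart from the Poly-E libraries and the 2 genotypes lie together.

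The sequences before the gene starts are shown for the largest rises under TMM in the alpha ring (Psma2) and in the 19S cap (Psmd4, which was below 0 with library totals), for Psme3, for the ATPase gene with the largest fall (Psmc4) and for both catalytic genes that hold an antioxidant response element (Psmb5, Psmb6), neither of them called under TMM. The choice was made with values known, and other members with larger rises than Psmd4 (Psmd10, Psme1, Psme2, Psme4) are not shown. RefSeq (GRCm38.p6) gave a start for 39 of the 46 genes. Each line is the 100 bases just before the start, 5′ to 3′ on the strand of the gene, and capitals mark TGACNNNGC, the core bound by Nfe2l1 with small Maf proteins, or CCAAT, the box bound by NF-Y, on either strand (ATTGG is CCAAT on the other strand).
Psme3, chr11:101316113-101316212, + strand: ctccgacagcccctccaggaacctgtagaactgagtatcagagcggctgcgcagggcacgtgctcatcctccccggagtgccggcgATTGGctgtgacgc
Psma2, chr13:14613142-14613241, + strand: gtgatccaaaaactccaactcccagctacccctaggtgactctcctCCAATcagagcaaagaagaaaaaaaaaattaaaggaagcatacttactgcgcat
Psmd4, chr3:95042615-95042714, - strand: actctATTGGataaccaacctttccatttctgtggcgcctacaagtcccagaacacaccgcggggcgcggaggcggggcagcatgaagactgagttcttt
Psmc4, chr7:28050093-28050192, - strand: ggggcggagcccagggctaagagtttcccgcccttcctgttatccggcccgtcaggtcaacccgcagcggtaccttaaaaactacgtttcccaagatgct
Psmb5, chr14:54617996-54618095, - strand: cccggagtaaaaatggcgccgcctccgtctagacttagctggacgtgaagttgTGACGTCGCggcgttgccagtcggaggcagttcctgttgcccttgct
Psmb6, chr11:70525257-70525356, + strand: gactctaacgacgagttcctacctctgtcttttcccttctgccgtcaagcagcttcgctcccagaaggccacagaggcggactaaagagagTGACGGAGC

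Over the 250 bases before each start, TGACNNNGC was found in 5 of the 39 genes (12.8%), namely Psmb5, Psmb6, Psmc6, Psmd9 and Psmd12, and in 11.5% of 27025 genes with a RefSeq start. Of these 5, Psmd12 alone was called under TMM, lower and in Ypel4+/+ cells, and not without any 1 of 4 libraries. Over all genes tested there, 58.5% were called. In Ypel4+/+ cells all 5 were called lower with library totals, and with DESeq2 size factors Psmd9 alone was called, higher (0.34). CCAAT was found in 13 of the 39 genes (33.3%) and in 37.5% of all. Of the genes with CCAAT, Psma2, Psma6, Psmd4, Psmd10 and Psme3 were called higher under TMM in Ypel4+/+ cells. Psma1, Psma7 and Psmb9 were called lower and the others were not called. Over all genes tested, 26.4% were called higher and 32.1% lower. With library totals Psme3 alone was called higher. A link between the box and the changes was not tested. A match of letters is a description of the sequence.

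Over the 46 genes, the change from Poly-E to Ortho-E was spread in both directions. In Ypel4+/+ cells 12 were called higher and 15 lower at an adjusted p of 0.05, which is 26.1% and 32.6% of the members beside a background of 26.4% and 32.1% of the 11747 genes tested (58.5% in either direction). In Ypel4-/- cells 13 were called higher and 12 lower (28.3% and 26.1%), beside 29.5% and 31.5% of 11973 genes (61% in either direction). The 4 Ortho-E libraries lay wholly above the 4 Poly-E libraries for 12 members and wholly below for 15 in Ypel4+/+ cells (background 22.6% and 30.6% of genes), and for 10 and 15 in Ypel4-/- cells (background 23.1% and 32.4%). Under TMM the shares are near the background. Their median log2 change was -0.07 in both genotypes, beside -0.19 (Ypel4+/+) and -0.09 (Ypel4-/-) over all tested genes. With library totals, 1 gene was called higher and 35 lower in Ypel4+/+, and 1 and 37 in Ypel4-/- cells, with medians of -1.35 and -1.49. Those lower calls are 76.1% and 80.4% of the members, beside 60.3% and 60.9% of all genes tested under that scaling, and the higher ones 2.17% in each genotype, beside 10.4% and 11.2%. The split of higher to lower calls in Ypel4+/+ was 15 to 12 with DESeq2, 16 to 13 with its size factors in edgeR and 18 to 11 of 40 genes tested with the filterByExpr filter, and in Ypel4-/- it was 10 to 17 with all 16 libraries in 1 fit. With filterByExpr that is 45% of members higher and 27.5% lower, beside 36.4% and 42.3% of 7402 genes, and with the size factors 34.8% and 28.3%, beside 28.7% and 29.6%. For DESeq2 the shares were 32.6% and 26.1%, beside 28.1% and 27.9%, and for the 16-library fit in Ypel4-/- 21.7% and 37%, beside 24.9% and 30.7%.

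The 2 genotypes share no library in this comparison, and their changes lay close. Called higher in both were 11 genes: Psma2, Psmd2, Psmd4, Psmd6, Psmd8, Psmd10, Psme1, Psme2, Psme3, Psme4 and Psmf1. Called lower in both were another 11: Psma1, Psma7, Psmb9, Psmc3, Psmc4, Psmd3, Psmd5, Psmd7, Psmd11, Psmd13 and Psmg2. None was called in opposite directions, 39 of 46 had the same sign, and Pearson's r of the log2 changes across the 46 genes, which are not independent, was 0.89. These values were not computed over all genes, of which 58.5% (Ypel4+/+) and 61% (Ypel4-/-) were called. The likeness of the genotypes is therefore not shown to be particular to the proteasome genes. The 18 members outside the rule for named genes are described below with values seen beforehand. Leaving out each library in turn kept 21 of the 27 calls in Ypel4+/+ and 22 of the 25 in Ypel4-/- cells. The calls lost without some library were those of Psma6, Psmb9, Psmc5, Psmd2, Psmd12 and Psmg3 in Ypel4+/+ and of Psmb4, Psmb7 and Psmb9 in Ypel4-/- cells.

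**Figure D2:**
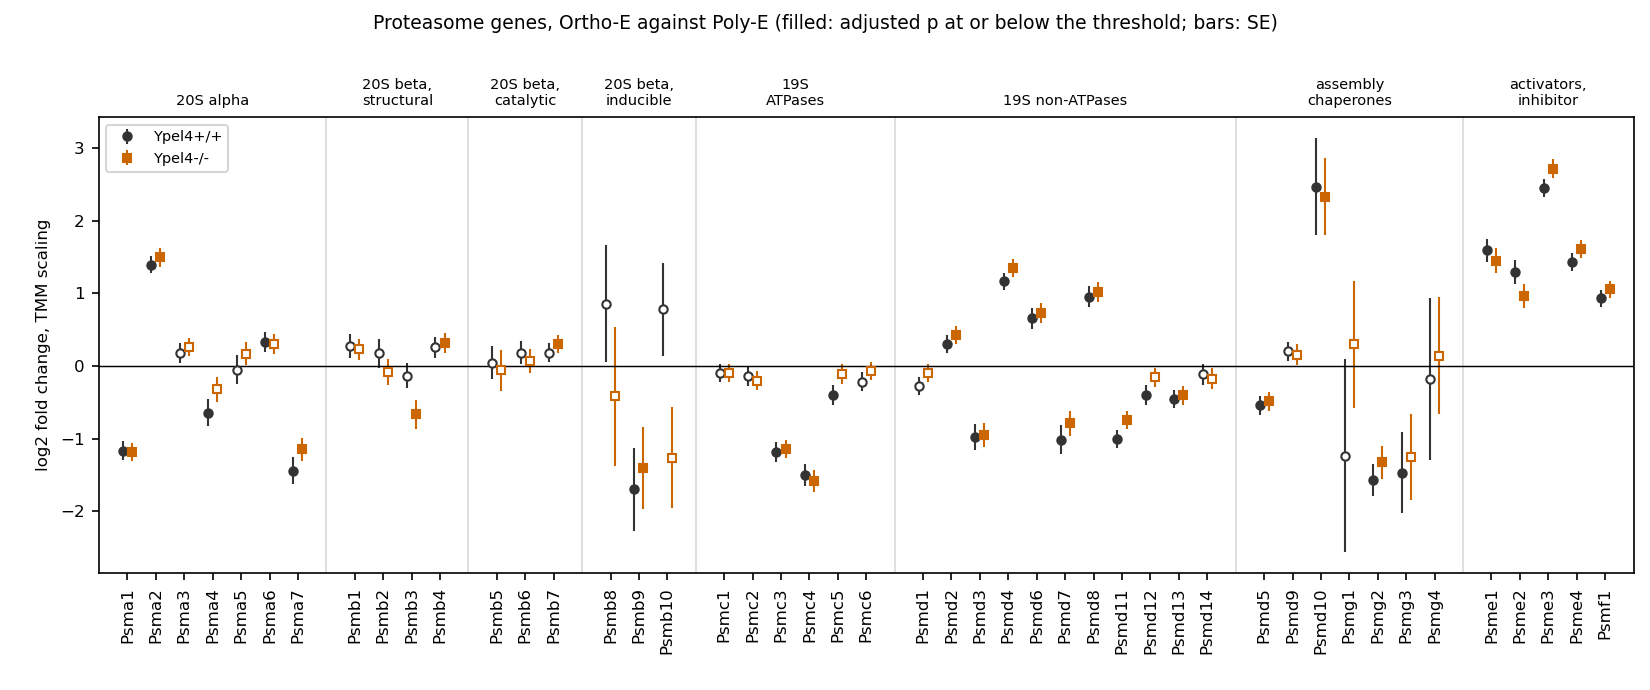
The log2 fold change of Ortho-E against Poly-E (y axis, TMM scaling) for each of the 46 genes, grouped by role along the x axis, in Ypel4+/+ (circles) and Ypel4-/- (squares) cells, with standard errors; filled symbols passed an adjusted p of 0.05. All 5 genes of the activators and inhibitor lie above 0 in both genotypes, whereas the alpha ring runs from Psma2 at 1.399 to Psma7 at -1.44 in Ypel4+/+ cells.

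All 5 genes of the activators and inhibitor of the core were called higher in Ortho-E cells of both genotypes. Over all genes tested, 26.4% (Ypel4+/+) and 29.5% (Ypel4-/-) were called higher. Psme4, which encodes a large single-chain cap (PA200), had 108.8, 93.3, 82.8 and 90.1 CPM in the Poly-E libraries of Ypel4+/+ mice, all below the 250, 251, 230 and 255 CPM of their Ortho-E libraries (log2 fold change 1.43, standard error 0.12, adjusted p = 8.03e-11). Psme1 and Psme2, the interferon-inducible partners of the PA28 alpha-beta ring, lie close together on chromosome 14 on opposite strands. Psme1 went from 12.4, 9.68, 13.2 and 12.5 to 32.9, 32.5, 33.6 and 42.0 CPM in Ypel4+/+ cells, and Psme2 from 15.4, 12.0, 16.6 and 14.1 to 38.9, 40.5, 32.3 and 30.6 CPM. Neither pair of groups overlapped. Their log2 changes were 1.59 (standard error 0.16, adjusted p = 2.85e-09) and 1.30 (standard error 0.16, adjusted p = 1.06e-07), and 1.45 and 0.97 in Ypel4-/- cells. Psmf1, named PI31 for its inhibition of the core in the test tube, went from 211, 186, 188 and 171 to 338, 394, 332 and 344 CPM in Ypel4+/+ cells. Its log2 change was 0.93 there (standard error 0.12, adjusted p = 1.21e-07) and 1.06 in Ypel4-/- cells.

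These rises are relative to the typical gene for all of these genes other than Psme3. With library totals the log2 changes in Ypel4+/+ cells were 0.31 for Psme1, 0.15 for Psme4 and 0.02 for Psme2, none of which passed the test, and Psmf1 was lower at -0.35. Among mutant cells Psme2 and Psmf1 were below 0 with library totals (-0.45 and -0.36). Psme2 has a near copy, Psme2b, with 0.90 to 3.67 CPM per library, and reads that fit both places were not counted. Markers of macrophages and other antigen-presenting cells, which also use Psme1 and Psme2, summed to between 13.1 and 29.2 CPM at the Poly-E stage and between 35.0 and 56.2 CPM at the Ortho-E stage, with 5 of 8 tested genes called higher and 0 lower in Ypel4+/+ cells. In Ypel4-/- cells 6 of 10 were called higher and 0 lower, beside 26.4% (Ypel4+/+) and 29.5% (Ypel4-/-) of all genes tested called higher. Of these markers Cd74 ranged from 6.07 to 18.0 CPM over the Poly-E and from 14.5 to 32.8 CPM over the Ortho-E libraries. Adgre1 and Csf1r, with the fewest counts of the list (21 and 18 in all), reached at most 1.80 and 1.11 CPM. Total counts were 1182 for Cd74, 333 for H2-Ab1, 305 for H2-Aa and 249 for H2-Eb1. They were 145 for Cd68, 63 for C1qc, 47 for C1qb and 42 for C1qa. Of 5 lymphocyte markers tested, 2 were called higher in Ortho-E than in Poly-E in Ypel4+/+ and 5 in Ypel4-/- cells. The part of these markers in the result was not tested.

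**Figure D3:**
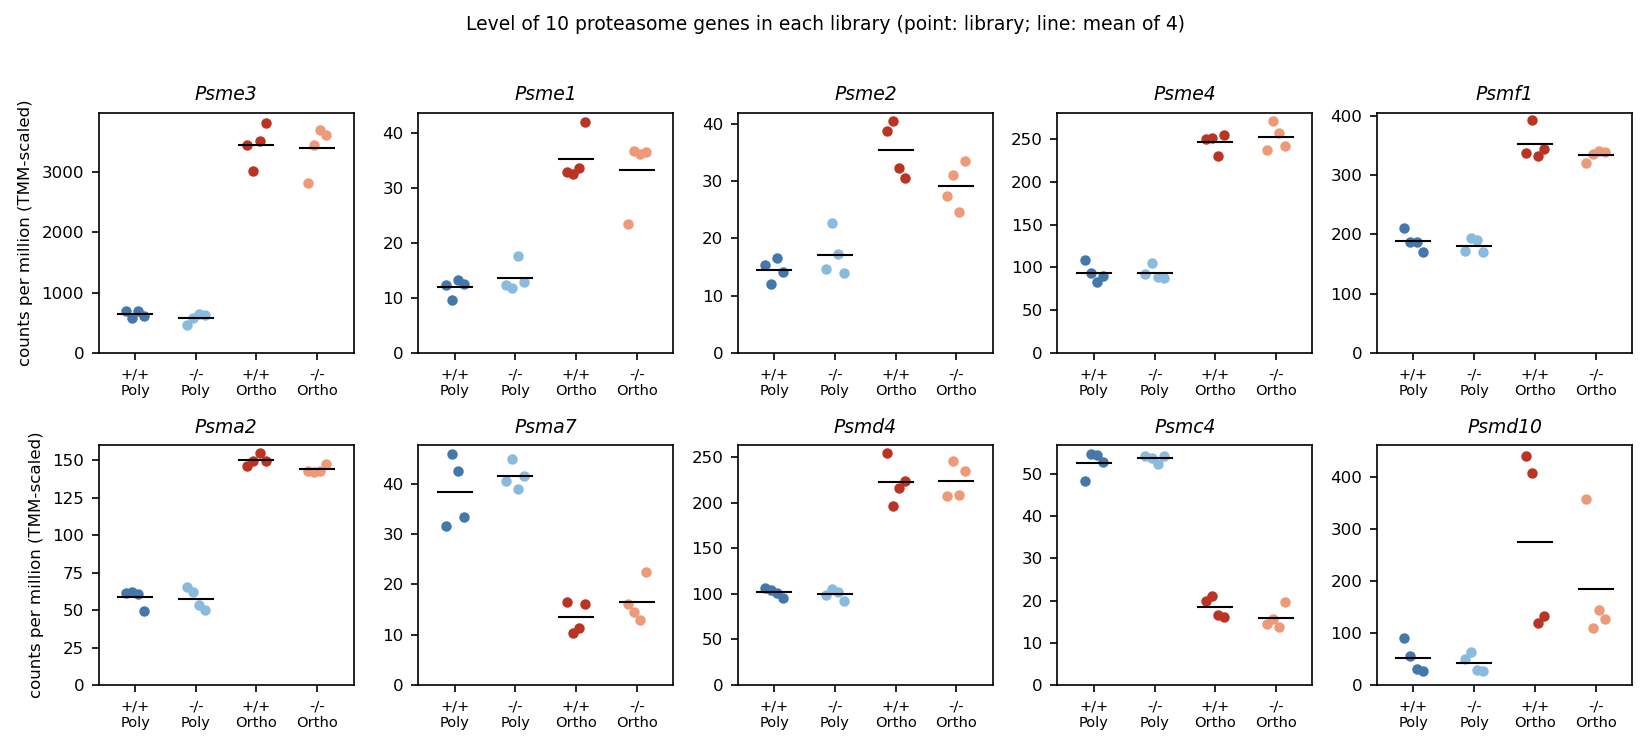
TMM-scaled CPM (y axis, from 0) of 10 genes in each of the 16 libraries, as points by group, with the mean of 4 as a line. The 5 genes of the activators and inhibitor, Psma2, Psmd4 and Psmd10 are higher in both Ortho-E groups, and Psma7 and Psmc4 are lower.

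The subunits of one ring did not move together. In the alpha ring, whose 7 detected genes are needed in equal numbers in the particle, 2 were called higher and 3 lower in Ypel4+/+ cells. Over all genes tested the shares were 26.4% and 32.1%. Psma2, on chromosome 13 from 14613242 to 14625671, went from 61.2, 62.3, 60.5 and 49.4 CPM in Poly-E to 146, 150, 155 and 149 CPM in Ortho-E libraries (log2 fold change 1.399, standard error 0.12, adjusted p = 1.66e-10). Psma7, on chromosome 2 from 180036373 to 180042433, went from 31.6, 45.9, 42.6 and 33.3 to 16.5, 10.3, 11.3 and 16.1 CPM (log2 fold change -1.44, standard error 0.18, adjusted p = 1.40e-07). These are the extremes of the ring, chosen by their values, and in both genes the stages were fully apart. The log2 changes in mutant cells were 1.496 and -1.15. With library totals Psma2 was near 0 (0.12 and 0.07 in the respective genotypes, neither past the test) and Psma7 stayed lower (-2.73 and -2.56). Per length, the ratio of Psma2 to Psma7 was 5.04 ± 0.86 in Ypel4+/+ Poly-E and 37.7 ± 9.53 in Ortho-E cells, and 4.53 ± 0.55 and 29.6 ± 6.23 in Ypel4-/- cells.

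The other alpha genes lay between. Psma1 fell from 138 to 181 CPM in Ypel4+/+ Poly-E to 67.4 to 72.5 CPM in Ortho-E libraries (log2 fold change -1.17, adjusted p = 9.15e-09). Psma4 was called lower in Ypel4+/+ cells at a log2 change of -0.64 and not in Ypel4-/- cells (-0.32, adjusted p = 0.12). Psma6 was called higher in Ypel4+/+ cells at 0.33, a call that was lost without Ortho-E replicate 3 or 4 (0.29 at the lowest) and that was below 0 with library totals. Psma3 (0.18) and Psma5 (-0.05) did not pass the test in Ypel4+/+ cells under TMM. With library totals both were called lower there (-1.10 and -1.34). With DESeq2 size factors in edgeR Psma3 was called higher (0.32, adjusted p = 0.043).

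Relative to the typical gene, the beta ring moved little in Ypel4+/+ cells. None of the 4 structural genes (Psmb1 to Psmb4) nor the 3 constitutive catalytic genes was called under TMM, and their log2 changes ranged from -0.13 (Psmb3) to 0.28 (Psmb1). With library totals all 7 were called lower (-1.001 for Psmb1 to -1.42 for Psmb3), beside 60.3% of all genes tested. With DESeq2 size factors Psmb4 (0.39, adjusted p = 0.014) and Psmb7 (0.32, adjusted p = 0.022) were called higher, and a replicate block called Psmb1 and Psmb4. Psmb5, whose product has the chymotrypsin-like activity, had 16.9, 15.5, 13.0 and 9.74 CPM in the Poly-E libraries of Ypel4+/+ mice and 18.2, 17.1, 12.3 and 9.10 CPM in their Ortho-E libraries (log2 change 0.05, standard error 0.23). The stages overlapped throughout. Psmb6 (caspase-like activity) and Psmb7 (trypsin-like activity) had log2 changes of 0.19 (standard error 0.16) and 0.18 (standard error 0.13). Psmb4 and Psmb7 were called higher in Ypel4-/- cells at 0.32 and 0.31, calls lost without any 1 of 6 and of 5 libraries (for Psmb7 0.21 without Ortho-E replicate 4, adjusted p = 0.19) and below 0 with library totals (-1.11 for Psmb7). The call on Psmb7 was also lost with no low-count filter (0.23) and with all 16 libraries in 1 fit (0.14). Per length Psmb1 was the highest of the structural genes at 90.5 RPKM in Ypel4+/+ Ortho-E cells and Psmb3 the lowest at 6.63, and among the catalytic genes Psmb7 had 77.3 RPKM against 15.3 for Psmb6. Psmb3 was called lower in Ypel4-/- cells at -0.66 (standard error 0.20, adjusted p = 0.0041). Exons of Psmb5 share 12.5% of their bases with the microRNA gene Mir686, and pairs of reads that overlap 2 genes were not counted.

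The inducible catalytic genes, which replace the constitutive ones in the immunoproteasome of immune and interferon-treated cells, were near the limit of detection. Psmb8 had 39 counts in all 16 libraries, Psmb10 had 83 and Psmb9 had 199, against 1290 counts on Psmb5. Within each pair and per length, Psmb8 made up 0.85% ± 0.52 of Psmb8 and Psmb5 together in Ypel4+/+ Poly-E cells, and Psmb10 made up 0.73% ± 0.21 of Psmb10 and Psmb7. Psmb9 made up 5.95% ± 3.38 of Psmb9 and Psmb6 in Ypel4+/+ Poly-E and 1.06% ± 1.01 in Ortho-E cells. In CPM Psmb9 went from 5.03, 3.48, 1.52 and 2.35 to 0.42, 0, 0.67 and 1.63, so that the lowest Poly-E library lay below the highest Ortho-E library. Its log2 change was -1.69 (standard error 0.57, adjusted p = 0.013) in Ypel4+/+ cells, a call lost without Poly-E replicate 1 (-1.26, adjusted p = 0.056). Among mutant cells it was -1.4006 (adjusted p = 0.032), and that call was lost without any 1 of 4 libraries (-1.04 without Ortho-E replicate 3, adjusted p = 0.11). Psmb9 shares 5.79% of its exon bases with Tap1, which fell from 15.6 ± 5.34 to 5.42 ± 1.12 CPM. No call was made on Psmb8 or Psmb10, which had 4 to 16 and 5 to 39 counts per group of 4 libraries.

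In the 19S cap (17 genes), 4 genes were called higher and 8 lower under TMM in Ypel4+/+ cells, beside 26.4% and 32.1% of all genes tested. Of the 6 ATPases none was called higher. Psmc4, on chromosome 7 from 28041707 to 28050101, went from 48.3, 54.8, 54.4 and 52.8 CPM in Ypel4+/+ Poly-E to 19.9, 21.1, 16.7 and 16.1 CPM in Ortho-E libraries (log2 fold change -1.50, standard error 0.15, adjusted p = 1.75e-09), and by -1.58 in Ypel4-/- cells. Psmc3 was 2.27-fold lower in Ypel4+/+ Ortho-E cells (adjusted p = 1.87e-08) and 2.21-fold lower in Ypel4-/- ones. Under TMM Psmc5 was called lower in Ypel4+/+ cells alone, at -0.40, and not without any 1 of 4 libraries (-0.25 at the least). With DESeq2 size factors in edgeR that call was lost as well (-0.27, adjusted p = 0.070). Psmc1, Psmc2 and Psmc6 were within -0.10 to -0.21 under TMM in Ypel4+/+ cells and did not pass the test. With library totals they were called lower there (-1.38, -1.42 and -1.50). The mean RPKM of the 6 ATPases over that of the 14 constitutive 20S genes was 1.35 ± 0.075 in Ypel4+/+ Poly-E and 0.82 ± 0.029 in Ortho-E cells, and 1.32 ± 0.092 and 0.84 ± 0.026 in Ypel4-/- cells. Every Ortho-E library lay below every Poly-E library in this ratio. Its means weigh each gene alike and include genes with large changes. In Ypel4+/+ cells these were Psma2 among the 20S genes (61.8 to 159 RPKM) and Psmc3 (49.7 to 21.3) and Psmc4 (24.2 to 8.50) among the ATPases. The ratio without them was not computed. Per length Psmc6 was the highest ATPase gene in Ypel4+/+ Ortho-E cells at 63.2 RPKM and Psmc4 the lowest at 8.50.

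The 11 non-ATPase genes split, with 4 called higher and 5 lower in Ypel4+/+ cells, beside 26.4% and 32.1% of all genes tested. Psmd4 (Rpn10), a receptor for ubiquitin chains on chromosome 3 from 95032694 to 95042614, went from 107, 105, 101 and 95.4 CPM to 255, 197, 217 and 224 CPM in Ypel4+/+ cells (log2 fold change 1.17, standard error 0.12, adjusted p = 3.17e-09) and by 1.35 in Ypel4-/- cells, though it was at -0.12 and -0.07 with library totals. Psmd8 (0.96), Psmd6 (0.66) and Psmd2 (0.30, a scaffold that also binds ubiquitin-like domains) were also called higher in Ypel4+/+ cells, and all 3 were below 0 with library totals; the call on Psmd2 was lost without Ortho-E replicate 3 or 4 (0.25 at the lowest). Psmd7, Psmd11 and Psmd3, subunits of the lid, were called lower by log2 changes of -1.012, -1.002 and -0.98 in Ypel4+/+ and of -0.79, -0.75 and -0.95 in Ypel4-/- cells. Psmd13 followed at -0.45 and -0.40. Under TMM Psmd12 was called lower in Ypel4+/+ cells alone at -0.40, which did not hold without any 1 of 4 libraries (-0.22 at the least). Nor did it hold with DESeq2 size factors in edgeR (-0.27, adjusted p = 0.080). Psmd14, the deubiquitinase of the lid, and Psmd1 were at -0.11 (adjusted p = 0.51) and -0.27 (adjusted p = 0.062) in Ypel4+/+ cells. With library totals both were called lower there (-1.40 and -1.55). Per length the ratio of Psmd4 to Psmc4 went from 1.504 ± 0.14 to 9.49 ± 1.57 in Ypel4+/+ cells, and mutant cells went from 1.43 ± 0.095 to 11.1 ± 1.30. At the extremes of this list Psmd4 had 79.5 RPKM and Psmd3 4.14 RPKM in Ypel4+/+ Ortho-E cells.

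Among the assembly chaperones, Psmd10 (gankyrin), which escorts an ATPase into the cap, rose about as much as Psme3, with far more spread between replicates. Its levels were 91.1, 56.1, 31.0 and 26.2 CPM in Ypel4+/+ Poly-E and 441, 408, 120 and 132 CPM in Ypel4+/+ Ortho-E libraries, and 50.4, 64.4, 29.4 and 26.2 against 359, 111, 144 and 126 CPM in Ypel4-/- cells. The groups did not overlap, and the log2 changes were 2.47 (standard error 0.67, adjusted p = 0.018) and 2.33 (standard error 0.53, adjusted p = 0.0084). With replicates 1 and 2 alone the change in Ypel4+/+ was 2.64 and with replicates 3 and 4 alone 2.21. With library totals it was 1.20 (adjusted p = 0.13) and 0.92 (adjusted p = 0.18), and in Ypel4-/- cells replicates 1 and 2 alone did not pass (2.24, adjusted p = 0.14). In each group the high values were those of replicates 1 and 2, apart from Ypel4-/- Ortho-E replicate 2. The part of this replicate difference in the result was not tested.

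Under TMM the other chaperones were flat or lower. Psmg2, one partner of a pair that starts the alpha ring, had 17.2 to 18.0 CPM in Ypel4+/+ Poly-E and 3.66 to 7.93 CPM in Ortho-E libraries (log2 change -1.57, standard error 0.22, adjusted p = 6.08e-07) and changed by -1.32 in Ypel4-/- cells. Its partner Psmg1 had 28 counts in all. Psmg3 and Psmg4, another such pair, had 142 and 40 counts. Psmg3 was called lower in Ypel4+/+ cells at -1.47 (adjusted p = 0.027), which did not hold with DESeq2 (adjusted p = 0.080) nor without any 1 of 4 libraries (-1.22 without Ortho-E replicate 2). Psmd5, which holds ATPases of the base, was called lower in both genotypes (-0.54 and -0.49, adjusted p = 0.00055 and 0.0019). Psmd9 was at 0.20 (adjusted p = 0.20) in Ypel4+/+ cells, and 25.5% of its exon bases are shared with Gm26745. There it was called higher with DESeq2 size factors in edgeR (0.34, adjusted p = 0.028) and lower with library totals (-1.08).

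**Figure D4:**
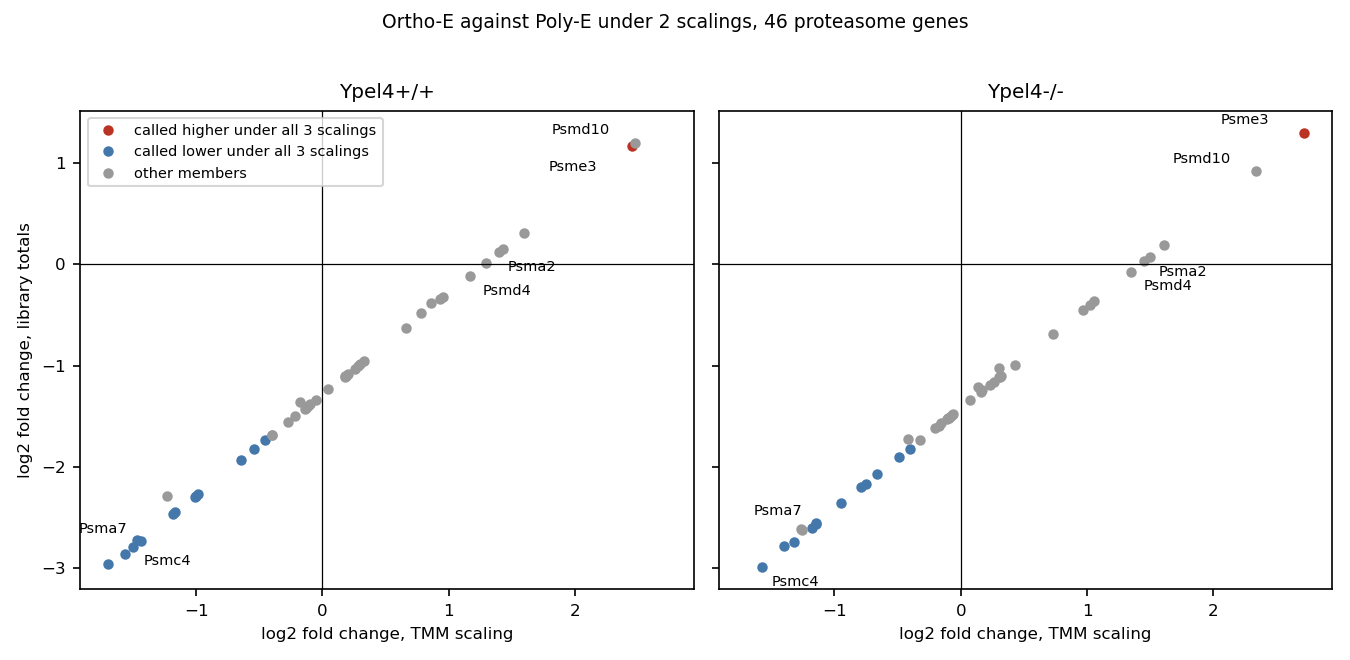
Each point is one of the 46 genes, with its log2 fold change of Ortho-E against Poly-E under TMM (x axis) and under library totals (y axis) in Ypel4+/+ (left) and Ypel4-/- cells (right). Psme3 is the single gene called higher under TMM, DESeq2 size factors and library totals, and 13 genes in Ypel4+/+ and 12 in Ypel4-/- cells are called lower under all 3.

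No difference between the genotypes passed the test in these genes. In Poly-E cells edgeR called 0 of the 46 genes (background 0.00807% of 12395 genes tested) and DESeq2 0, and 0 were under an unadjusted p of 0.05. In Ortho-E cells edgeR called 0 of 45 tested genes (background 0.0285% of 10521, and 0.019% lower) and DESeq2 0, while 1 was under an unadjusted p of 0.05. The median log2 difference of Ypel4-/- minus Ypel4+/+ was 0.00 for Poly-E and -0.05 for Ortho-E cells. Above 0 lay 23 of the 46 genes at the earlier stage and 17 of 45 at the later one. Among the 40 genes with 1000 or more counts the differences ran from -0.26 (Psmd10) to 0.38 (Psmb2) at the earlier stage and from -0.61 (Psmb3) to 0.30 (Psma7) at the later one. The median standard errors were 0.12 and 0.14.

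The gene with the lowest p in Ortho-E was Psmb3, a structural gene of the beta ring. It was at 14.8, 13.1, 16.99 and 16.1 CPM in Ypel4+/+ and 11.7, 5.93, 8.88 and 12.9 CPM in Ypel4-/- Ortho-E libraries (log2 difference -0.61, standard error 0.22, unadjusted p = 0.010, adjusted p = 0.995 in edgeR). All 4 mutant libraries lay below the wild-type ones, which held for 1 of 45 members and for 1.03% of all genes tested. In Poly-E the genotypes overlapped at 16.1 to 19.6 and 15.6 to 19.8 CPM. Second in Ortho-E was Psmc2 at -0.24 (unadjusted p = 0.063, edgeR). In Poly-E the lowest p were those of Psmb2 at 0.38 (unadjusted p = 0.056, edgeR) and Psmg2 at -0.21 (unadjusted p = 0.12, edgeR). With replicate numbers as a block their unadjusted p were 0.0065 and 0.088 (edgeR), Psmb2 being the 1 member then under 0.05, and both had an adjusted p of 0.9997. Psmg2 lay lower in all 4 mutant Poly-E libraries (1 of 46 members, beside 0.831% of genes), and Psmb10 higher (1 of 46, beside 1.26%).

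**Figure D5:**
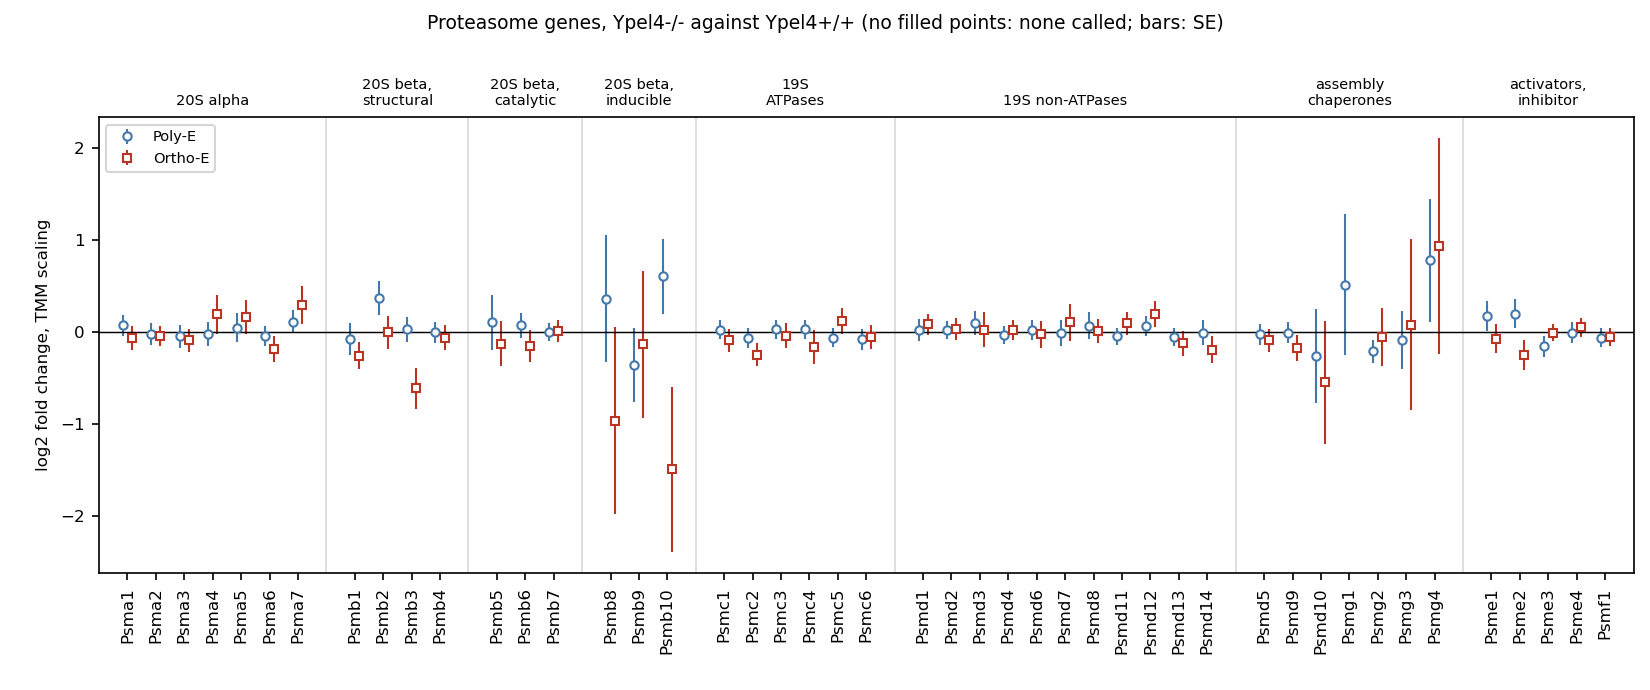
The log2 fold change of Ypel4-/- against Ypel4+/+ (y axis, TMM scaling) for each gene, by role, in Poly-E (circles) and Ortho-E (squares) cells, with standard errors. No point is filled, since no gene passed an adjusted p of 0.05, and the wide bars belong to genes with few counts such as Psmb8, Psmb10 and Psmg4 and to Psmd10.

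Whether the change between the stages differed between the genotypes was tested as an interaction over all 16 libraries. No member was called (0% of 13318 genes in edgeR; DESeq2 called 0 members). Unadjusted p under 0.05 were found for Psmb3 (-0.64, standard error 0.27, unadjusted p = 0.021) and for Psmb10 (-2.14, standard error 0.95, unadjusted p = 0.029), the latter on 5 to 39 counts per group, and for 363 of the 13318 genes tested by edgeR. Calls made in one genotype and not in the other, such as Psma4 or Psmb4, are therefore not shown to differ between them.

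Partners of the proteasome outside the Psm names split like the subunits (12 genes matched). In Ypel4+/+ Ortho-E cells 4 were called higher and 6 lower, beside 26.4% and 32.1% of all genes tested. Zfand5, which stimulates the 26S particle, had 169, 88.4, 144 and 127 CPM in the Poly-E libraries and 1138, 815, 1132 and 1198 CPM in Ortho-E libraries. Its log2 change of 3.05 (standard error 0.18, adjusted p = 2.91e-11) was the largest of the list, and it was 3.32 in Ypel4-/- cells. Among those called lower were AI314180 (the mouse gene of the 26S adaptor Ecm29) at -1.83 and Zfand2a at -1.81. Mutant cells had 5 called higher and 6 lower, beside 29.5% and 31.5% of all genes tested. With library totals Zfand5 alone was called higher in Ypel4+/+ cells (1.77) and Fbxo7 turned below 0. Lower then were 8 partner genes, beside 60.3% of all genes tested. In mutant cells Zfand5 (1.91) and Akirin2 (0.32) were then called higher and 8 lower, beside 11.2% and 60.9% of all genes. Txnl1 (-1.12) and Usp14 (-0.04) were then below 0.

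The genes that regulate proteasome transcription also split by partner. Nfe2l1, which raises proteasome genes when the particle is short, was called higher at a log2 change of 1.44 in Ypel4+/+ cells (46.2 ± 4.80 to 123 ± 8.97 CPM, adjusted p = 1.36e-10), as were the small Maf genes Mafk (2.69) and Mafg (2.04) and the repressor Bach1 (1.78). Keap1 (-2.03) and all 3 genes of the CCAAT-binding factor NF-Y, Nfyb (-1.38), Nfyc (-1.09) and Nfya (-0.86), were called lower. Nfe2l2, Ddi2 and Ngly1 did not pass the test. The counts were 4 higher and 4 lower of 11 in each genotype. Over all genes tested the shares were 26.4% and 32.1% in Ypel4+/+ and 29.5% and 31.5% in Ypel4-/- cells. With library totals Mafk, Mafg and Bach1 were called higher and 7 lower, beside 10.4% and 60.3% of all genes in Ypel4+/+ cells. Nfe2l1 then did not pass the test (0.16, adjusted p = 0.26, in Ypel4+/+ cells).

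Of 15 genes for ubiquitin, its activation and delivery, 4 were called higher and 6 lower in Ypel4+/+ cells. For this list and the next, the shares of all genes tested were 26.4% higher and 32.1% lower, and 10.4% and 60.3% with library totals. Among the ubiquitin genes called were Ubb, a polyubiquitin gene, at 2.56 (352 ± 109.2 to 2032 ± 165 CPM, adjusted p = 6.76e-11) and the shuttle gene Ubqln4 at -2.01 (7.31 ± 2.01 to 1.63 ± 0.86 CPM). With library totals 3 of the 15 were called higher and 12 lower. Interferon and antigen presentation genes were 6 higher and 3 lower of 13 tested in Ypel4+/+ cells, led by Ifit1 (3.44), Isg15 (2.57) and Gbp2 (2.49, at 3.12 ± 2.16 CPM in Ortho-E), and 3 higher and 4 lower with library totals. No gene of these 4 lists was called between the genotypes.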

How the data were processed

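Count tables were deposited per library: the authors ran nf-core/rnaseq 1.4.2 against GRCm38, and per the file headers featureCounts 1.6.4 counted read pairs per gene (whole-number counts, not strand-specific, without pairs that fit several places or genes). All 16 libraries were used, grouped by sample title. All libraries differed from each other in their counts. The labels do not state outright that each replicate is a separate mouse, so p-values measure the spread between these libraries.

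In R 4.3.3, edgeR 4.0.16 (TMM, robust quasi-likelihood, Benjamini-Hochberg over all genes with at least 10 counts in the fit, threshold 0.05) compared the stages within each genotype, the genotypes within each stage (8 libraries each) and their interaction. Standard errors are the log2 change over the root of F. CPM and RPKM use TMM over all 16 libraries, the folds TMM over 8. The depth of 2670173 to 12451234 counts limits genes under 200 counts (6 members). Fits were tested on simulated data with few changed genes, as many up as down, which cannot check the choice of scaling between the stages.

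The members, lists and rules were chosen with earlier results of these data known. Named were the 4 largest rises and falls, the inducible and constitutive catalytic genes, and the highest and lowest gene per length of each list. Also named were the 2 lowest p of each genotype comparison, chaperones, activators and inhibitor, called regulators and the 3 largest changes of other lists. The other 18 members were named after their values were seen. Some genes that the rule for other lists would name are not reported here. Alternatives were DESeq2 1.42.0, its size factors, library totals, no globins, other filters, 16 libraries in 1 fit, a replicate block and left-out libraries. Of the partner list, Paaf1 was not matched, and Ahsp was not matched among the erythroid markers.

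Both stages of a replicate number share a further number in the deposited library names, read here as the mouse. Deviations of same-numbered Poly-E and Ortho-E libraries correlated at 0.21 to 0.36 (Ypel4+/+) and 0.057 to 0.31 (Ypel4-/-) over 7852 genes. Different-numbered ones correlated at -0.30 to 0.26 and at -0.27 to 0.15, so the ranges overlapped in both genotypes. Same-numbered Poly-E libraries of the 2 genotypes correlated at 0.16 to 0.45, although some different-numbered libraries correlated as highly (0.41 for replicates 3 and 4). In Ortho-E the range for same-numbered libraries was -0.05 to 0.17. The main fits, of the stages, the genotypes and their interaction, treated no libraries as paired. A replicate block was run as an alternative.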

Additional observations from a re-analysis of the deposited data

Results flagged for a closer look

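Each group of 4 libraries was examined for 1 library far from the other 3 in CPM by Dixon's criterion, for the 28 members named by rule. Of 112 groups, 12 held such a library, and chance gives about 1 in 20. None of these was tested further.

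Psmd10 stood at 359 CPM in Ypel4-/- Ortho-E replicate 1, above a next value of 144. In the same library Psmb5 was at 17.1 CPM (next 11.8), Psmc6 at 111 CPM (next 89.8) and Psme1 at 23.4 CPM (next 36.2). Psme1 was at 42.0 CPM in Ypel4+/+ Ortho-E replicate 4 (next 33.6). Psmd9 was at 52.5 CPM in Ypel4-/- Poly-E replicate 1 (next 41.5). Psma2 was at 49.4 CPM in Ypel4+/+ Poly-E replicate 4 (next 60.5) and at 148 CPM in Ypel4-/- Ortho-E replicate 4 (next 143).

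The other flags rest on few counts. Psmb10 was at 0.387 CPM in Ypel4+/+ Poly-E replicate 2, Psmb8 at 0.772 CPM in Ypel4-/- Ortho-E replicate 4, Psmg1 at 0.233 CPM in Ypel4+/+ Ortho-E replicate 4 and Psmg4 at 0.999 CPM in Ypel4+/+ Ortho-E replicate 3. In the last 3 groups the other libraries were at 0.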

How the results depend on the processing

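Scaling by library totals moved the counts most. In Ypel4+/+ cells it gave 1 gene higher and 35 lower with a median of -1.3482, and in Ypel4-/- cells 38 calls, 1 higher and 37 lower, with a median of -1.494. It turned 6 of the 12 genes called higher in Ypel4+/+ and 8 of the 13 in Ypel4-/- cells below 0. Psma6 (Ypel4+/+), Psmb4 (Ypel4-/-), Psmd2, Psmd6 and Psmd8 (both) were among them, and of the genes named by rule Psmd4 (-0.1183 in Ypel4+/+, -0.0715 in Ypel4-/-), Psmf1 (-0.3471 and -0.3633) and, in Ypel4-/- cells, Psmb7 (-1.111) and Psme2 (-0.4477), while 9 other calls on genes named by rule were lost. The median in Ypel4+/+ was 0.0592 with DESeq2 size factors. Other settings kept the counts within 1.5 times.

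Leaving out 1 library at a time gave 24 to 29 calls in Ypel4+/+ (10 to 15 higher, 12 to 15 lower, median -0.0768 to 0.1507) and 22 to 27 in Ypel4-/- cells (11 to 14 higher, 11 to 13 lower, median -0.1335 to -0.0356). The genotype comparisons and the interaction stayed at 0 calls, with medians of -0.0139 to 0.0234 in Poly-E and -0.0686 to -0.0314 in Ortho-E. A block on replicate number gave 30 calls between the stages in Ypel4+/+ and 28 in Ypel4-/- cells, all 27 and 25 unblocked calls among them. The added calls were Psmb1, Psmb4 and Psmd1 in Ypel4+/+ and Psma3, Psma6 and Psmb1 in Ypel4-/- cells. Between the genotypes the block made no call on a member (0 in Poly-E, 0 in Ortho-E). Causes were not tested. Depth limits the 6 genes under 200 counts.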
